A study of Mus musculus with 33 samples.

Results

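The enzymes that remove superoxide and peroxides were followed on Affymetrix MGU74Av2 arrays of whole lung and liver around birth. The members were chosen by name: the superoxide dismutases Sod1, Sod2 and Sod3, catalase (Cat), the glutathione peroxidases Gpx1, Gpx3 and Gpx4, and the peroxiredoxins Prdx1, Prdx2 and Prdx6. Of these 10 genes, 8 had probe sets annotated to them alone, 11 probe sets among the 12488 of the array. Prdx1 was represented by 2 probe sets that are annotated to Prdx1 and to its copy Gm21399 at the same time, which were kept apart from the 11, and no value is given for Prdx6. All mice were C57/BL by the labels (C57B/6J in the study's methods), and none carried an altered gene. In room air (21% oxygen), lungs were collected at fetal day 21 (F21) and 2, 6, 12 and 24 h after birth. In 10% oxygen, lungs were collected at F21, from dams that had spent 12 h in it, and 2 and 6 h after birth into 10% oxygen. Livers came only from room air, at F21 and at the same 2 and 6 h. Each of the 11 groups had 3 arrays, 33 in all. The deposited values are MAS5 signals, which give the brightness of a probe set after all chips were brought to the same target intensity, 100. Litters are not given for the samples, so that the p-values measure the spread between arrays, and in RNA of a whole organ fewer cells of a type and less RNA per cell cannot be told apart.

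Superoxide dismutases turn superoxide into hydrogen peroxide: Sod1 in the cytosol, Sod2 in mitochondria and Sod3 outside the cell. Catalase, mostly in peroxisomes, breaks hydrogen peroxide down, whereas the glutathione peroxidases reduce it with glutathione and the peroxiredoxins with thioredoxin. Gpx1 and Gpx4 work inside the cell, Gpx4 on lipid peroxides in membranes, and Gpx3 is the secreted form found in plasma. The lung leaves a fetal setting of low oxygen at birth, and the comparisons asked whether these enzymes change then, whether 10% oxygen alters the change, and whether the liver shares it.

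The tissue labels were borne out by defining markers. The surfactant gene Sftpc was between 17961 and 60597 in the lungs and at most 125.6 in the livers, and albumin (Alb) was between 44095 and 56445 in the livers. The lungs of 10% oxygen stood apart in RNA quality. The ratio of the 3' to the 5' Gapdh probe sets, which rises when RNA is broken, reached 0.734 to 1.15 in room-air lungs, but 1.21 to 9.4 in those of 10% oxygen, and 1.3 to 1.86 in livers. Pearson's r between arrays of a group, across probe sets, was 0.897 to 0.95, 0.752 to 0.827 and 0.869 to 0.896 in the same order. Among the F21 lungs of 10% oxygen, replicate 2 had an Alb signal of 2160 against 65.3 and 84.6 in the other arrays, and replicate 3 had the highest Gapdh ratio, 9.4. Calls against the F21 lungs of 10% oxygen are given with these arrays and without them. The signal of the BioB hybridization control was 73.9 to 110.7 in lungs of room air at 2 h and 12 h, and 226.6 to 529.4 at F21.

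**Figure D1:**
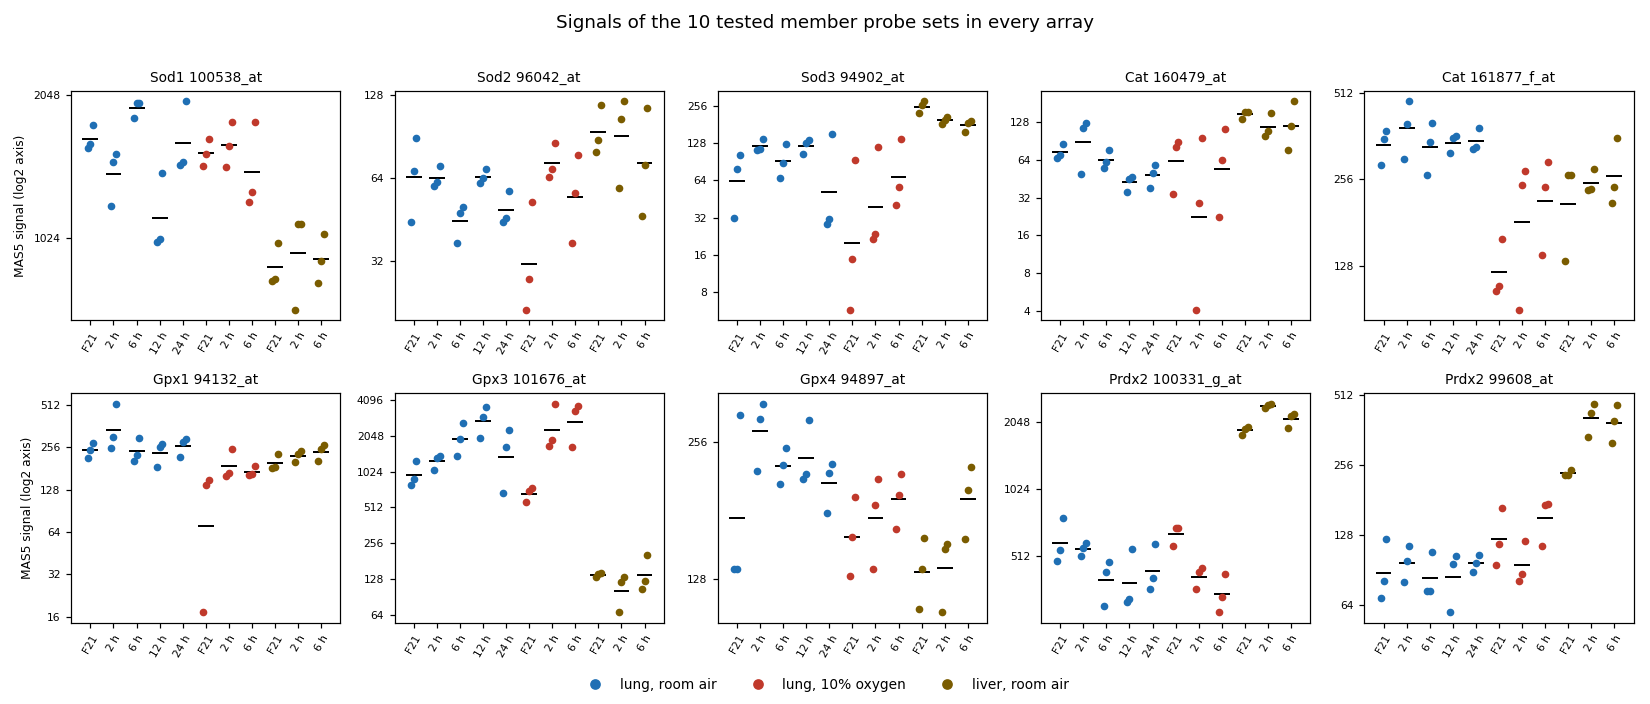
MAS5 signal on a log2 axis of the 10 tested member probe sets, 1 panel each, with 1 point per array in the 11 groups and the mean of the log2 signals as a line. Gpx3 lay far higher in lung than in liver, Prdx2 far higher in liver, and 1 of the F21 lungs of 10% oxygen lay at 17.3 for Gpx1.

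The filter on dim signals kept a probe set if 3 or more arrays of a fit had it within their brightest 40%. Of the 11 member probe sets, 10 entered every fit. The Prdx2 probe set 100330_at was within the brightest 40% of no array, and its signals were between 0.9 and 35.6. Sod2 entered the lung fit through 3 of 24 lung arrays. Signals under 10 were set to 10, and differences are given as log2 changes from limma, which pass at a Benjamini-Hochberg adjusted p under 0.05 over all probe sets of the fit.

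Gpx3 rose in lung after birth, at 12 h in room air and at 2 and 6 h in 10% oxygen. In room air its signals were 789, 885 and 1246 at F21, 1063, 1328 and 1385 at 2 h, and 1395, 1921 and 2625 at 6 h. They were 1951, 2928 and 3552 at 12 h, and 682, 1645 and 2290 at 24 h. All arrays of 6 h and of 12 h lay above all arrays of F21, while those of 24 h reached below the lowest and above the highest F21 array. The mean rose from 973 ± 241 (SD, n = 3) at F21 to 2811 ± 807 (SD, n = 3) at 12 h, 2.86-fold on the log2 scale (log2 change 1.51, 95% interval 0.75 to 2.28, adjusted p = 0.0413). The log2 change was 1.005 at 6 h (adjusted p = 0.242) and 0.52 at 24 h (adjusted p = 0.699), neither past the test. The call at 12 h was at the edge: leaving out any 1 of the 6 arrays compared gave a log2 change of 1.32 to 1.76 with an adjusted p of 0.0507 to 0.186. It also did not pass with quantile normalization (adjusted p = 0.0504), with no filter on dim signals (adjusted p = 0.0835) or in the adjusted test of the methods (adjusted p = 0.254).

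In 10% oxygen the signals of Gpx3 were 567, 703 and 744 at F21, 1678, 1882 and 3804 at 2 h, and 1632, 3283 and 3674 at 6 h. Every array after birth lay above every F21 array. Gpx3 rose 3.43-fold at 2 h (log2 change 1.78, 95% interval 1.01 to 2.55, adjusted p = 0.0104) and 4.05-fold at 6 h (log2 change 2.02, 95% interval 1.25 to 2.79, adjusted p = 0.00194). Without replicate 2 of the F21 group the log2 changes were 1.66 (adjusted p = 0.0431) and 1.90 (adjusted p = 0.0102), and without replicate 3 they were 1.82 (adjusted p = 0.0375) and 2.06 (adjusted p = 0.00813). With both left out, so that 1 F21 array remained and was taken to vary like the other groups, they were 1.62 (adjusted p = 0.204) and 1.86 (adjusted p = 0.0800). Without replicate 3 of the 2 h group the change at 2 h was 1.41 (adjusted p = 0.0662). With the Gapdh ratio of the array as a covariate, both changes passed, at 1.72 and 1.98. The change at 2 h did not pass with array weights, nor in the methods' test, unadjusted or adjusted. The change at 6 h passed the unadjusted test of the methods and not the adjusted one (adjusted p = 0.281).

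**Figure D2:**
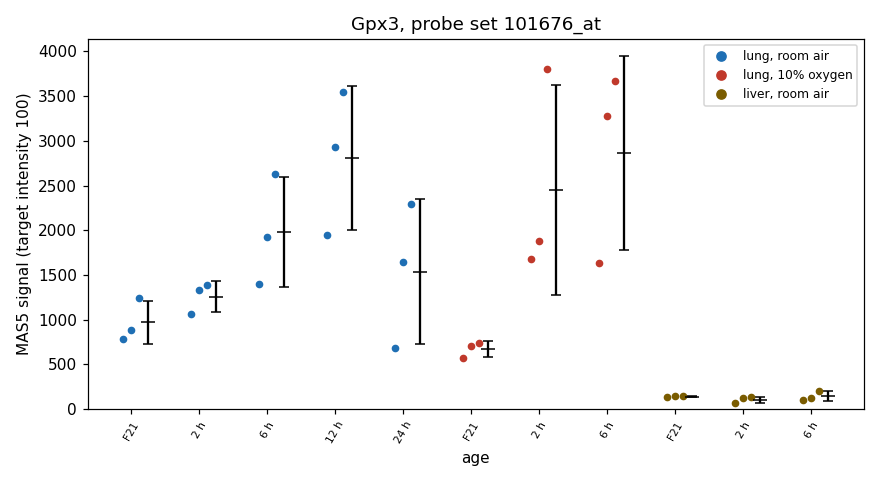
MAS5 signal of Gpx3 in every array (points) with the mean and SD of each group (black, n = 3), by age in lungs of room air, lungs of 10% oxygen and livers. The 12 h lungs of room air sit between 1951 and 3552, above the F21 lungs at 789 to 1246, and the livers sit at or below 205.4.

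The rise of Gpx3 was not shown to differ between oxygen levels. The change in room air minus that in 10% oxygen was -1.39 at 2 h (95% interval -2.48 to -0.31, adjusted p = 0.265) and -1.01 at 6 h (95% interval -2.10 to 0.07, adjusted p = 0.607). Without F21 replicate 2, 3 or both of 10% oxygen the difference for Gpx3 was -1.27, -1.43 and -1.23 at 2 h and -0.90, -1.05 and -0.86 at 6 h, with no call. Markers of other cells moved over the same ages. The summed signal of the club and ciliated airway markers, 5 of 6 listed genes on 6 probe sets, went in room air from 1920 to 3667 (F21 lungs) up to 8104 to 11173 (12 h lungs). In 10% oxygen it lay between 760 and 1958 in F21 lungs, against 4557 to 6256 in those taken at 6 h. Most of this sum was Scgb1a1, the secretoglobin of club cells, at 7173 to 9096 in the 12 h lungs. Of the 6 probe sets, 2 rose at 12 h in room air (Scgb1a1 and Aldh1a1), with a median log2 change of 0.58, and 1 rose at 6 h in 10% oxygen (Scgb1a1), with a median of 0.30. The neutrophil markers, 10 of 10 listed genes on 14 probe sets, summed to 985 to 1467 at F21 and 2590 to 3320 at 6 h in room air, where 2 of 9 tested probe sets rose (S100a8 and S100a9). In 10% oxygen 4 of 6 tested alveolar type 2 probe sets rose at 2 h (median log2 change 1.84) and 3 of 6 at 6 h (1.62). Of 14 smooth muscle and fibroblast probe sets, 0 passed in limma at 2 h and 5 fell at 6 h (median -0.68). At 12 h in room air 0 of 6 and 0 of 14 passed in limma. The marker counts were not repeated without F21 replicates 2 and 3 of 10% oxygen. The part of these markers in the result was not tested.

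The promoter of Gpx3 is shown because this gene was called after birth at both oxygen levels, those of Gpx1, Sod1 and Prdx1 because their promoters held a motif that bears on oxygen or oxidants. Of the 10 members, 8 had a promoter in the RefSeq table (build GRCm38.p6). The 250 bases before the start were searched on both strands for TGACNNNGC and for ACGTG, motifs whose letters may overlap each other. TGACNNNGC is the core of the antioxidant response element. ACGTG is a form of the core of the hypoxia response element, and other forms of it were not searched. The first was held by 10.2% and the second by 16.6% of all 32851 promoters of the table. Capitals mark a match, on the reverse strand in Sod1 (from 56 bases before the start) and Prdx1 (from 133 bases before it) and on the forward strand in Gpx1 (from 183 bases before it).
Gpx3, chr11:54902604-54902853, plus strand: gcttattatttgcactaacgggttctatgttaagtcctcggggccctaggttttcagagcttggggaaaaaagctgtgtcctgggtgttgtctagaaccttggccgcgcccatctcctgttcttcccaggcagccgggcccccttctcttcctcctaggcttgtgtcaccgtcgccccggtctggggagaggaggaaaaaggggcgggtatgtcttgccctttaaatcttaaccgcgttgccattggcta
Gpx1, chr9:108338830-108339079, plus strand: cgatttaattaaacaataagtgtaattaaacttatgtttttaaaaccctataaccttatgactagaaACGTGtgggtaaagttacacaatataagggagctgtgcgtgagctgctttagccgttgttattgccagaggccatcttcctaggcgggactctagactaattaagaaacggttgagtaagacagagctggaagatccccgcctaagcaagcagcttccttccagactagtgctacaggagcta
Sod1, chr16:90220512-90220761, plus strand: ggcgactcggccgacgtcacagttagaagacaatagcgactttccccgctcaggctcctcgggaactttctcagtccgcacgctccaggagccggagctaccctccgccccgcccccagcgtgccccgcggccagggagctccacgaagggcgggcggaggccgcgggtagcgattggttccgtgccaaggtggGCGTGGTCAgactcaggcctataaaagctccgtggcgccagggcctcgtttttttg
Prdx1, chr4:116685349-116685598, plus strand: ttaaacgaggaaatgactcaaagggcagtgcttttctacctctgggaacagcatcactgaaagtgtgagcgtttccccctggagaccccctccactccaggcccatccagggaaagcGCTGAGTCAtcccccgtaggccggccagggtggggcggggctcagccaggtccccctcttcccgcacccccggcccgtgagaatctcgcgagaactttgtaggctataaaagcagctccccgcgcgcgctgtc
No other member promoter of the table, that of Gpx3 included, held these letters in this window.

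No other of the 10 tested member probe sets passed in limma in lungs of room air. At 2 h, 0 of 10 member probe sets passed in limma, against 4.24% of all 6927 tested. At 6 h it was 0 of 10 against 1.02%, and at 12 h 1 of 10 (Gpx3) against 1.34%. At 24 h it was 0 of 10 against 0.577%. For 1, 2, 3 and 0 of 10 the unadjusted p was under 0.05, against 17.9%, 11.7%, 11.9% and 10.2% of all. The methods' t-test was run here on the floored log2 signals kept by the filter above, so that its counts are not the paper's own. At its unadjusted threshold it called 0, 0, 2 and 0 of the 10 in the same order, against 464, 302, 265 and 154 of all 6927. The 2 at 12 h were Gpx3 and Cat 160479_at. After adjustment it called 0 of the 10 at every age, against 22, 2, 0 and 0 of all. The median log2 change of the 10 was 0.24 at 2 h, against 0.02 over all probe sets tested, and -0.03, -0.03 and 0.01 at 6, 12 and 24 h.

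Among the dismutases, Sod1 signals were 1580, 1611 and 1768 at F21 and 1003, 1017 and 1404 at 12 h, so that the groups did not overlap. The log2 change was -0.55 with an adjusted p of 0.160. Sod1 at 6 h was 1832, 1969 and 1971, above all F21 arrays, with no call. Sod2 lay between 37.0 and 89.4 in all lungs of room air. Sod3 was at 31.9, 78.7 and 103.2 at F21, 112.4, 114.9 and 138.9 at 2 h, 104.5, 127.7 and 136.3 at 12 h, and 28.2, 31.4 and 150.9 at 24 h. All arrays of 2 h and of 12 h lay above all arrays of F21, while F21 and 24 h were variable. The log2 changes of Sod3 were 0.93 at 2 h (95% interval -0.62 to 2.48, adjusted p = 0.578) and 0.94 at 12 h (adjusted p = 0.744), with no call.

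Catalase was measured by 2 probe sets whose signals did not move together, with Pearson's r of 0.03 over 24 lung arrays and -0.51 over 9 liver arrays. The mark _f_at of 161877_f_at is used by the manufacturer where probes may also match related sequences. In room air this probe set was between 265.0 and 477.9 at all ages, with no call. The signals of 160479_at were 66.4, 69.6 and 85.6 at F21, 35.6, 45.4 and 46.9 at 12 h, and 38.2, 50.3 and 57.9 at 24 h. All arrays of 12 h and of 24 h lay below all arrays of F21. The log2 change of 160479_at was -0.79 at 12 h (95% interval -2.11 to 0.52, adjusted p = 0.743) and -0.61 at 24 h (adjusted p = 0.821), with no call in limma. The methods' test called it at 12 h before adjustment and not after it. Gpx1 was between 183.8 and 303.0 in 14 of 15 lungs of room air and 519.6 in 1 lung of 2 h. Gpx4 signals were 134.5, 134.5 and 292.7 at F21 and 221.1, 287.0 and 310.0 at 2 h (log2 change 0.63, adjusted p = 0.216), and the groups overlapped. The Prdx2 probe set 100331_g_at was at 486, 544 and 758 at F21 and 304, 436 and 482 at 6 h (log2 change -0.55, adjusted p = 0.349), without overlap and without a call.

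In 10% oxygen 1 of 10 member probe sets passed at 2 h, against 2.66% of all tested, and 2 of 10 at 6 h, against 6.31%. Both ages share the same F21 arrays. Besides Gpx3, Prdx2 fell at 6 h. The signals of its probe set 100331_g_at were 567, 687 and 688 at F21, 363, 432 and 453 at 2 h, and 287, 334 and 426 at 6 h. Every array after birth lay below every F21 array, and the log2 change at 6 h was -0.90 (95% interval -1.40 to -0.41, adjusted p = 0.0230). Without F21 replicate 2 it was -0.86 (adjusted p = 0.0681), without F21 replicate 3 it was also -0.86 (adjusted p = 0.0788), and with both left out it was -0.72 (adjusted p = 0.328). It did not pass either without replicate 1 of the 6 h group (-0.77, adjusted p = 0.0992) or without replicate 2 of it (-0.88, adjusted p = 0.0592). The second Prdx2 probe set, 99608_at, was at 95, 117.4 and 167.3 at F21 and 115.3, 171.9 and 174.7 at 6 h, with a log2 change of 0.30 (adjusted p = 0.659) and no call. Prdx2 is abundant in red cells, and the summed signal of the erythroid markers, 14 of 18 listed genes on 17 probe sets, was 25175 to 36818 in these F21 lungs and 33539 to 59838 at 6 h, most of it from Hba-a1. Of the 11 erythroid probe sets tested, 1 rose (Gata1) and 1 fell (Hba-x), with a median log2 change of 0.40. The part of the red cells in the result was not tested.

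Gpx1 in 10% oxygen was at 17.3, 138.6 and 148.7 at F21, 160.4, 167.1 and 247.4 at 2 h, and 161.4, 165.0 and 189.0 at 6 h. The groups did not overlap, and the log2 changes of 1.41 and 1.27 did not pass (adjusted p = 0.127 at both ages). They were 0.39 and 0.26 without replicate 3 of F21, the array at 17.3, and 1.89 (adjusted p = 0.0558) and 1.76 (adjusted p = 0.0498) without replicate 2. Sod2 was at 21.3, 27.4 and 52.4 at F21 and 64.7, 69.1 and 85.9 at 2 h (log2 change 1.22, adjusted p = 0.118), and the groups did not overlap. Without F21 replicate 2, 3 or both the change of Sod2 was 1.59 (adjusted p = 0.0558), 0.94 (adjusted p = 0.340) and 1.41 (adjusted p = 0.291).

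Against room air at the same age, 2 of 10 member probe sets were lower in the F21 lungs of 10% oxygen, 161877_f_at of Cat and the probe set of Gpx1, against 7.13% of all tested in either direction. At 2 h it was 1 of 10, Cat again, against 16.8%. At 6 h it was 0 of 10 in limma against 5.8%. The methods' test called 1, 0 and 0 of 10 unadjusted at F21, 2 h and 6 h, against 361, 671 and 338 of all. The 1 at F21 was Cat 161877_f_at. Adjusted, it called 0 of 10 at each age, against 3, 99 and 0 of all. In limma 3, 5 and 2 of 10 had an unadjusted p under 0.05 at F21, 2 h and 6 h. The share over all tested was 22.4%, 31% and 22.4%. Cat 161877_f_at was at 287.8, 353.9 and 377.7 in F21 lungs of room air and at 104.9, 109.0 and 158.6 in those of 10% oxygen, 2.77-fold lower (log2 difference -1.47, 95% interval -2.14 to -0.80, adjusted p = 0.00724). At 2 h it was at 301.8, 397.4 and 477.9 in room air and at 90.1, 245.1 and 272.6 in 10% oxygen (log2 difference -1.08, 95% interval -1.75 to -0.42, adjusted p = 0.0241), again with no overlap. The second Cat probe set, 160479_at, was at 66.4, 69.6 and 85.6 and at 34.4, 81.2 and 89.3 at F21, and its groups overlapped. At 2 h 160479_at was at 49.5, 115.8 and 125.1 in room air and at 4.1, 29.2 and 96.0 in 10% oxygen. Its log2 difference at 2 h was -1.56 (adjusted p = 0.0946), with overlap and no call.

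The F21 difference of Cat passed without replicate 2 (-1.36, adjusted p = 0.0303) or replicate 3 (-1.39, adjusted p = 0.0332) of 10% oxygen and was -1.09 without both (adjusted p = 0.250). The 2 h difference did not pass without replicate 2 of 10% oxygen (-0.58, adjusted p = 0.185), nor without replicate 1 (-1.06, adjusted p = 0.0716) or replicate 3 (-0.93, adjusted p = 0.113) of room air. It also did not pass with only the groups compared in the fit, nor in the methods' test, unadjusted or adjusted. Gpx1 was at 214.4, 244.1 and 275.8 in F21 lungs of room air, against 17.3, 138.6 and 148.7 (log2 difference -1.78, 95% interval -2.79 to -0.77, adjusted p = 0.0269). Without the array at 17.3 the difference of Gpx1 was -0.76 (adjusted p = 0.152), and without replicate 2 of 10% oxygen it was -2.26 (adjusted p = 0.0113). It did not pass when any 1 of the F21 lungs of room air was left out either, with values of -1.69 (adjusted p = 0.105), -1.87 (adjusted p = 0.0597) and -1.78 (adjusted p = 0.0626) without replicates 1, 2 and 3. The same held for Gpx1 with only the groups compared in the fit and in the methods' test, unadjusted or adjusted.

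These differences were smaller when a measure of RNA quality entered the fit. With the Gapdh ratio as a covariate, the F21 differences were -0.88 for Cat 161877_f_at (adjusted p = 0.257) and -0.92 for Gpx1 (adjusted p = 0.471), and the 2 h difference of Cat was -0.57 (adjusted p = 0.351). The 15 lungs of room air had ratios up to 1.15 and the 9 of 10% oxygen from 1.21 upwards, so that oxygen level and RNA quality cannot be told apart here. The median difference of the 10 member probe sets was -0.37 at F21, -0.52 at 2 h and -0.23 at 6 h, against -0.04, -0.06 and -0.04 over all probe sets tested.

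**Figure D3:**
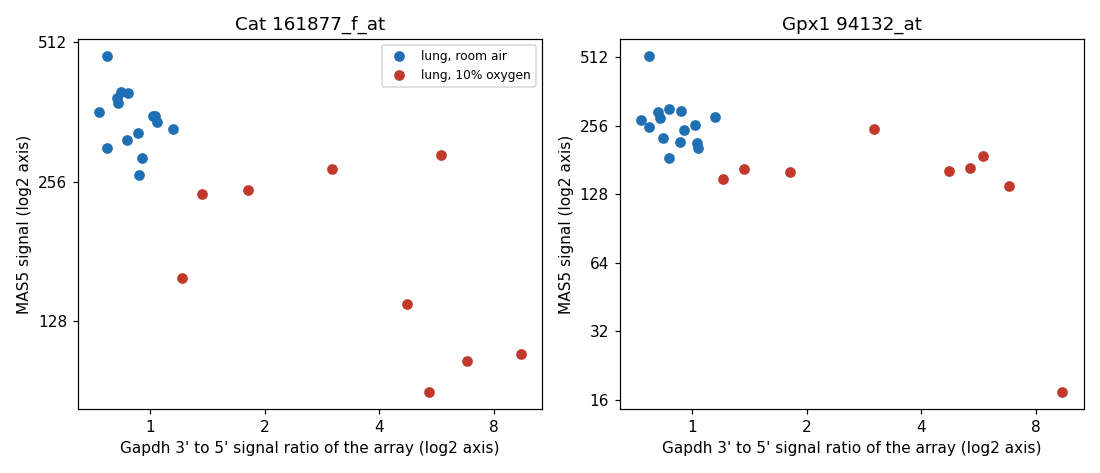
MAS5 signal of Cat (161877_f_at) and Gpx1 against the Gapdh 3' to 5' ratio of the array, both on log2 axes, with 1 point per lung array (15 of room air, 9 of 10% oxygen). The oxygen levels do not overlap in the ratio, and the lowest Gpx1 signal, 17.3, is that of the array with the highest ratio, 9.4.

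**Figure D4:**
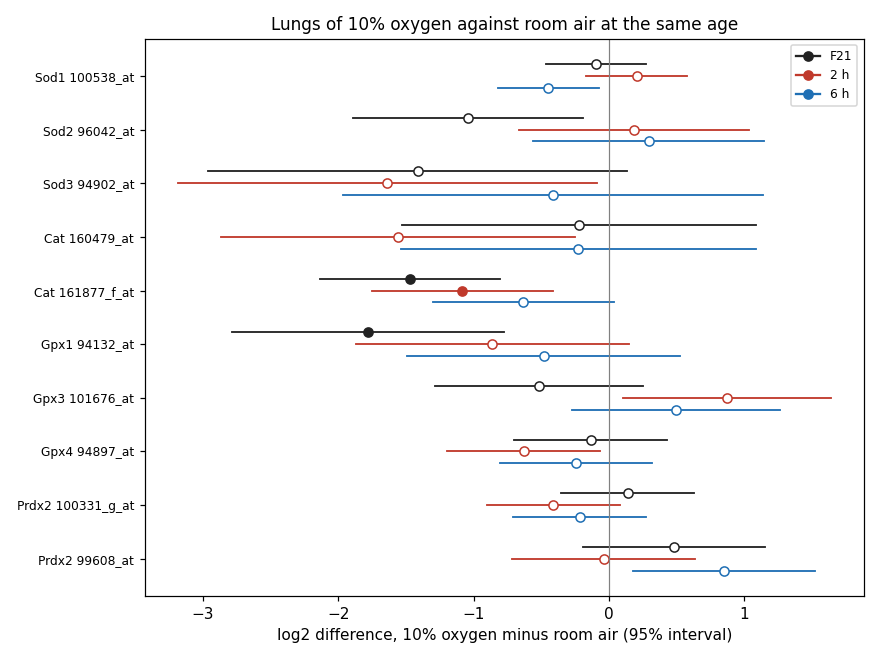
Log2 difference with its 95% interval between lungs of 10% oxygen and of room air at F21, 2 h and 6 h, for the 10 tested member probe sets. Filled points passed the test: Cat 161877_f_at at F21 (-1.47) and 2 h (-1.08) and Gpx1 at F21 (-1.78).

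No difference of a birth change between oxygen levels passed for a member. It was 0 of 10 in limma at 2 h, against 0.476% of all tested, and 0 of 10 at 6 h, against 0.0144%. For 2 and 1 of 10 the unadjusted p was under 0.05, against 13.1% and 8.59% of all. Besides Gpx3, Sod2 had an unadjusted p under 0.05 at both ages, with a change in room air minus that in 10% oxygen of -1.23 at 2 h (95% interval -2.43 to -0.02, adjusted p = 0.368) and -1.34 at 6 h (95% interval -2.54 to -0.13, adjusted p = 0.545). Without F21 replicate 2, 3 or both of 10% oxygen the difference for Sod2 was -1.60, -0.95 and -1.42 at 2 h and -1.71, -1.06 and -1.53 at 6 h, with no call.

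In liver at 2 h, 0 of 10 member probe sets passed in limma, against 0.915% of the 5686 tested. At 6 h it was 0 of 10 against 1.85%. For 2 and 3 of 10 the unadjusted p was under 0.05, against 12.1% and 13.4% of all. The methods' test called 2 and 0 of 10 unadjusted, against 177 and 211 of all 5686, and the 2 at 2 h were Prdx2 probe sets. Adjusted, it called 0 of 10 at both ages, against 0 and 21 of all. Every array after birth lay above every F21 array for the Prdx2 probe set 99608_at, which was at 231.1, 232.5 and 242.8 at F21, 338.8, 426.0 and 468.4 at 2 h, and 316.5, 394.7 and 464.7 at 6 h, with log2 changes of 0.79 (adjusted p = 0.0771) and 0.72 (adjusted p = 0.0850). For 100331_g_at the log2 change at 2 h was 0.37, with signals of 1805, 1919 and 1956 at F21 and 2387, 2444 and 2483 at 2 h (adjusted p = 0.191). At 6 h 1 array, at 1930, lay within its F21 range. The erythroid markers summed to 51534 to 63234 at F21, 61575 to 64375 at 2 h and 57508 to 63918 at 6 h in liver. Of the 14 erythroid probe sets tested in liver, 0 passed at 2 h in limma and 2 rose at 6 h, with a median log2 change of 0.40 and 0.13, and their part was not tested. Gpx3 in liver was at 133.1 to 142.5 at F21, 67.3 to 132.4 at 2 h and 105.8 to 205.4 at 6 h.

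Of 10 member probe sets, 6 passed between F21 lung and F21 liver of room air, 2 higher and 4 lower in lung, against 35.7% of all 6849 tested. Gpx3 was 6.86-fold higher in lung, at 789 to 1246 against 133.1 to 142.5 (log2 difference 2.78, 95% interval 2.19 to 3.36, adjusted p = 1.75e-07). Sod1 was 1.86-fold higher, at 1580 to 1768 against 833.1 to 1002 (log2 difference 0.89, adjusted p = 2.08e-04). Sod3 was 3.95-fold lower in lung, at 31.9 to 103.2 against 222.8 to 278.3 (log2 difference -1.98, adjusted p = 1.02e-04). The difference of Sod3 did not pass the methods' test, unadjusted or adjusted (adjusted p = 0.0729). That test called 5 of 10 member probe sets unadjusted and adjusted, against 1382 and 1395 of all 6849.

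Prdx2 was lower in lung by both tested probe sets, 3.23-fold for 100331_g_at (log2 difference -1.69, adjusted p = 1.65e-07) and 2.67-fold for 99608_at (log2 difference -1.42, adjusted p = 1.64e-04). The erythroid markers summed to 37491 to 42162 in these lungs and 51534 to 63234 in the livers, most of it from Hba-a1. Over the 15 erythroid probe sets tested the median log2 difference was -1.91, and 9 were lower in lung, among them Slc4a1 (-5.20), Rhag (-4.24) and Klf1 (-4.68). Alas2, the first enzyme of heme synthesis in red cells, was at 549.3 to 636.8 in these lungs and 1285 to 1515 in the livers. Their part was not tested. For catalase the probe sets pointed in opposite directions: 160479_at was lower in lung, at 66.4 to 85.6 against 134.9 to 154.8 (log2 difference -1.005, adjusted p = 0.0357), while 161877_f_at was at 287.8 to 377.7 against 132.7 to 264.6 (log2 difference 0.68, adjusted p = 0.0514). The call of 160479_at was lost without any 1 of replicates 2 and 3 of lung or of the 3 livers, with an adjusted p of 0.0587 to 0.0957. The Gapdh ratio was 0.824 to 1.03 in the lungs and 1.34 to 1.86 in the livers of F21. With the ratio as a covariate, Gpx3 (3.95), Sod1 (1.27), Sod3 (-2.50) and 100331_g_at (-1.36) passed, while 160479_at (-1.15, adjusted p = 0.356) and 99608_at (-1.24, adjusted p = 0.119) did not. The organs share no range of the ratio, with room-air lungs up to 1.15 and livers from 1.3. Organ and RNA quality therefore cannot be told apart by this fit.

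**Figure D5:**
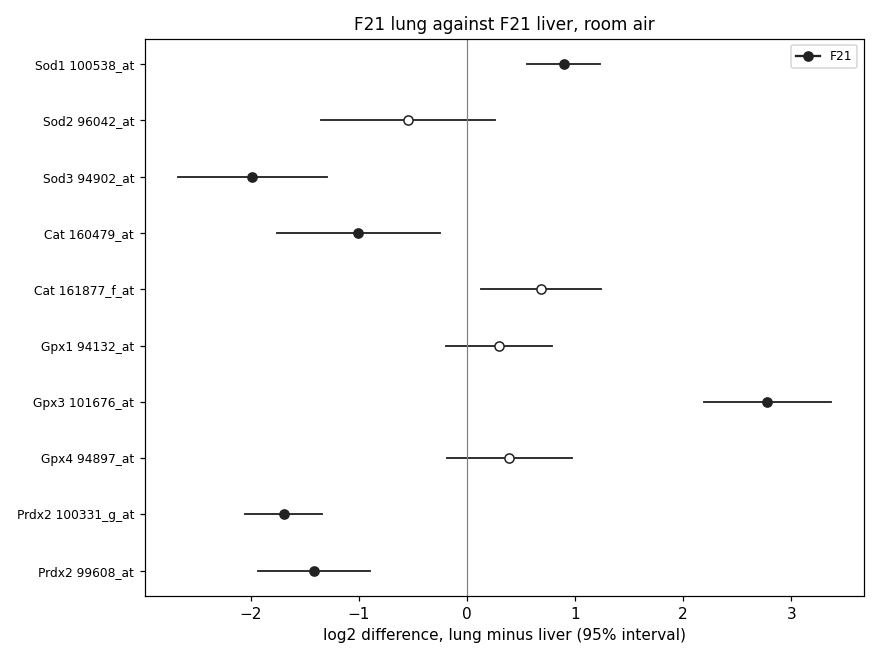
Log2 difference with its 95% interval between F21 lung and F21 liver of room air for the 10 tested member probe sets. Filled points passed the test: Gpx3 (2.78) and Sod1 (0.89) higher in lung, Sod3 (-1.98), Cat 160479_at (-1.005) and both Prdx2 probe sets (-1.69 and -1.42) lower.

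No difference of a birth change between lung and liver passed for the 10 tested member probe sets, while 97758_at, which Prdx1 shares with Gm21399, passed at 2 h. In limma 0 of 10 passed at 2 h, against 2.53% of all tested, and 0 of 10 at 6 h, against 0.876%. For 2 and 4 of 10 the unadjusted p was under 0.05, against 16.8% and 11.9% of all. For Gpx3 the lung change minus the liver change was 0.83 at 2 h (95% interval 0.0038 to 1.66, adjusted p = 0.294) and 1.01 at 6 h (95% interval 0.18 to 1.84, adjusted p = 0.283), and for Sod3 it was 1.29 (95% interval 0.31 to 2.27, adjusted p = 0.162) and 1.01 (95% interval 0.028 to 1.99, adjusted p = 0.411). These intervals, which carry no adjustment for the number of probe sets, leave out 0. At 6 h both tested Prdx2 probe sets, also with an unadjusted p under 0.05, differed in the other direction. The lung change minus the liver change was -0.71 for 100331_g_at (adjusted p = 0.199) and -0.79 for 99608_at (adjusted p = 0.374).

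The probe sets that Prdx1 shares with Gm21399 gave a further change at birth, which cannot be assigned to either gene. Prdx1 is a cytosolic peroxiredoxin that reduces hydrogen peroxide. In lungs of room air 97758_at was at 1816, 1952 and 2294 at F21 and at 560, 624 and 706 at 2 h, 3.21-fold lower (log2 change -1.68, 95% interval -2.18 to -1.18, adjusted p = 2.88e-04). At 6 h it was at 1227, 1860 and 2068, and the groups overlapped. The other probe set, 97055_s_at, was at 1030, 1137 and 1353 at F21 and 598, 799 and 945 at 2 h (log2 change -0.60, adjusted p = 0.222), also without overlap. The erythroid markers summed to 37491 to 42162 at F21 and 18392 to 24258 at 2 h in these lungs and the alveolar type 2 markers, 6 of 10 listed genes on 9 probe sets, to 50710 to 65442 and 29472 to 34945. Each sum was carried by 1 gene that fell, Hba-a1 (log2 change -1.05, adjusted p = 0.0355) and Sftpc (-1.33, adjusted p = 0.00425). They were the 1 of 11 erythroid and the 1 of 6 alveolar type 2 probe sets that passed, and the median log2 change was -0.17 over the erythroid and 0.36 over the alveolar type 2 probe sets. Their part was not tested. The BioB control was lower at 2 h as well, as given above.

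In 10% oxygen 97758_at was at 1112, 1286 and 1638 at F21, 750, 911 and 1385 at 2 h, and 591, 768 and 1134 at 6 h. The log2 change against F21 was -0.44 at 2 h (adjusted p = 0.366) and -0.73 at 6 h (adjusted p = 0.0739), with no call, and none without F21 replicate 2, 3 or both (-0.46 to -0.18 at 2 h and -0.75 to -0.47 at 6 h). The 2 h change in room air minus that in 10% oxygen was -1.24 (95% interval -1.95 to -0.54, adjusted p = 0.115), so that the change of 97758_at was not shown to differ between oxygen levels. At 6 h it was lower than in room air (log2 difference -1.07, adjusted p = 0.0134), a call that did not pass without replicate 1 of 10% oxygen (-0.85, adjusted p = 0.0550) or without replicate 1 (-0.99, adjusted p = 0.0615) or 2 (-0.91, adjusted p = 0.0697) of room air. In liver the 97758_at signals were 3387, 4014 and 4221 at F21 and 2595, 2870 and 3396 at 2 h, and 97055_s_at fell at 6 h (log2 change -0.59, adjusted p = 0.0388), which no fit with 1 array left out passed (adjusted p = 0.0822 to 0.1497). The 2 h change of 97758_at was -1.68 in lung and -0.39 in liver, a difference of -1.29 on the log2 scale (95% interval -1.85 to -0.72, adjusted p = 0.0130). Both probe sets were lower in F21 lung than in F21 liver, by -1.33 (97055_s_at, adjusted p = 2.15e-05) and -0.94 (97758_at, adjusted p = 7.02e-04).

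The other antioxidant genes were taken from lists of related peroxidases, glutathione and thioredoxin enzymes, glutathione transferases, NRF2 regulators with heme and metal defense, NADPH supply, sources of superoxide and peroxide, and peroxisomes, together 89 probe sets of 75 genes in the lung fit. In room air 2 passed at 2 h (2.25%), 5 at 6 h (5.62%) and 0 at 12 h and 24 h. Over all probe sets tested the shares were 4.24%, 1.02%, 1.34% and 0.577%. At 2 h Bach1, a repressor of antioxidant response genes, rose (log2 change 1.56, adjusted p = 0.0126) and mitochondrial isocitrate dehydrogenase Idh2 fell (-1.05, adjusted p = 0.0274). At 6 h all 5 rose. They were Gclc, the catalytic subunit of the first enzyme of glutathione synthesis (2.95, adjusted p = 0.00872), the metallothioneins Mt2 (2.07, adjusted p = 0.00768) and Mt1 (1.99, adjusted p = 0.00935), and Sqstm1, a carrier of cargo for autophagy (1.49, adjusted p = 0.0204). The fifth was Mafk, a partner of NRF2 on DNA (1.11, adjusted p = 0.0266), which falls outside the rule for named genes and was named after its value was seen. The median log2 change of the 89 was 0.13 at 2 h and 0.03 at 6 h, against 0.02 and -0.04 over all probe sets.

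In 10% oxygen 3 of the 89 passed at 2 h (3.37%) and 5 at 6 h (5.62%), against 2.66% and 6.31% of all tested. Ccs, the chaperone that loads copper into Sod1, rose by 161506_r_at at both ages (2.09 and 2.51, adjusted p = 0.0133 and 0.00146), and so did Txnip, the inhibitor of thioredoxin (1.53 and 1.66, adjusted p = 0.0176 and 0.00522). Without F21 replicate 3 none of the 3 calls at 2 h passed in limma (Ccs 1.83, adjusted p = 0.0647, and Txnip 1.40, adjusted p = 0.0799), and without both replicates 2 and 3 none did either. At 6 h, 2 of the 5 passed without replicate 2, 3 without replicate 3 and 2 without both. Ccs passed at 6 h in each case (2.25 to 2.87), and Txnip did not without both (1.67, adjusted p = 0.0932). Against room air 9 passed at F21 (10.1%), 19 at 2 h (21.3%) and 11 at 6 h (12.4%), of which 7, 14 and 10 were lower. Over all tested the shares were 7.13%, 16.8% and 5.8%. Gstm3 was lower at all 3 ages (-2.16, -3.37 and -2.13), Ccs at F21 and 2 h (-3.25 and -1.78) and Gclc at 6 h (-2.46). Of the 9 calls at F21, 7 passed without replicate 2 of 10% oxygen, 5 without replicate 3 and 3 without both, Ccs and Gstm3 in each case. The limits on RNA quality given for Cat and Gpx1 hold here too. In liver 0 of 93 passed at 2 h and at 6 h, against 0.915% and 1.85% of all tested. Between F21 lung and liver 47 of 102 passed (46.1%), against 35.7% of all tested. Of these, 11 were higher and 36 lower in lung, among them Prdx3 (-1.41), Prdx4 (-1.34) and Gclm (-2.41). The median difference was -0.31, against 0.15 over all probe sets.

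The genes most alike in pattern over the 24 lung arrays were sought for the 3 member probe sets with the widest range of group means among those that had passed in a lung comparison, as a description over arrays that share groups and scaling. For Gpx3 they were Grina (Pearson's r = 0.829), Igfbp3 (0.825) and Myh14 (0.791). For Gpx1 they were Gltp (0.943), Olfr140 (0.911) and Dhx15 (0.903), and for Cat 161877_f_at they were Arpc5 (0.917), Ctnnbip1 (0.905) and Cox8c (0.897). The range and the r of Gpx1 include the F21 array of 10% oxygen at 17.3, which had the highest Gapdh ratio. They were not computed without that array, and its part was not tested.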

How the data were processed

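RNA of whole lung (24 arrays) and liver (9 arrays) had been hybridized to Affymetrix MGU74Av2 arrays. The authors' deposited values are signal intensities on a linear scale, computed by the authors in MAS 5, which brought all chips to the target intensity 100. A filter on signal replaced the authors' filter on detection. The 66 controls were removed, a floor of 10 was put under the signals, and log2 values computed from the deposited intensities were compared with limma 3.58.1 in R 4.3.3 (lmFit, contrasts.fit and eBayes with a trend), with Benjamini-Hochberg adjustment at 0.05. All 8 lung groups were fitted together, as were the 3 liver groups, and the 6 groups of room air at F21, 2 h and 6 h for both organs.

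Names come from the platform annotation, updated through gene identifiers: 10855 of 12488 probe sets have 1 symbol, 396 have several and 1237 are not listed in it. The members, the gene lists and the markers were chosen with earlier results of these data known. Every member probe set is named, each on its own. From the other lists at most 3 genes per comparison with the smallest p were named. The procedure was tested on simulated data. The number of arrays limits the precision. The processing was varied by setting the floor to 1, adding 16 instead of a floor, normalizing by quantiles, dropping the filter or tightening it to the brightest 30% by median, fitting only the groups compared, blocking on sample number, weighting arrays, and adjusting for the 3' to 5' signal of Gapdh. Further alternatives were the t-test of the methods at 0.01, the F21 lungs of room air as baseline, and leaving out each array. Promoters are RefSeq's, of GRCm38.p6.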

Additional observations from a re-analysis of the deposited data

Results flagged for a closer look

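The probe set 97758_at, shared by Prdx1 and Gm21399, differed in its 2 h change between the organs: the lung change minus the liver change was -1.29 on the log2 scale in a test of the difference itself (limma, adjusted p = 0.0130). All 3 lungs of 2 h lay below all 3 lungs of F21. The difference passed in all 9 alternatives that could be run for it (-1.34 to -1.12, adjusted p = 0.00408 to 0.0366) and in all 12 fits with 1 array left out (adjusted p = 0.0175 to 0.0416). The 2 genes cannot be told apart on this array.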

How the results depend on the processing

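Counts are calls over the 10 member probe sets and all ages of a comparison. The share of all probe sets called was counted for the main fit and the methods' test alone. Under the other alternatives a changed count is therefore not a result about the members. For room-air lung after birth the count was 1, and 0 with quantile normalization, no filter, the replicate block or the adjusted test of the methods, 4 with array weights, 2 with the unadjusted test of the methods, and 0 to 1 when 1 array was left out. For 10% oxygen lung after birth it was 3, and 1 with array weights, 0 with the adjusted test of the methods, 2 to 6 when 1 array was left out, and 0 without both outlying F21 arrays, an alternative chosen after seeing the data. For 10% oxygen against room air it was 3, and 1 with the groups compared only, 0 with the Gapdh covariate, 1 and 0 with the unadjusted and adjusted test of the methods. For liver after birth it was 0, and 1 with array weights, 2 with the unadjusted test of the methods, and 0 to 1 when 1 array was left out. Between F21 lung and liver it was 6, and 4 to 7 in every alternative run. Sample numbers did not pair the arrays: deviations of same-numbered arrays correlated at -0.122 to 0.188 in lungs of room air. The block changed the count of no other comparison. Signs turned for Sod3 in 10% oxygen against room air at 2 h (0.030 with the Gapdh covariate), and, with the F21 lungs of room air as baseline, for Gpx1 at 2 h (-0.37) and 6 h (-0.51) and for Cat 161877_f_at at 6 h (-0.66), none of which had passed. The causes were not tested. The 3 arrays per group limit what can be called.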
